A study of Mus musculus with 2 samples.

Results

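Chaperones bind unfolded proteins and return them to a working shape, or hold them until they can be degraded. The genes described here encode chaperones of the cytosol and the mitochondria with their partners: the HSP70 family, the J-domain proteins that load it, HSP90 and its cochaperones, the small heat shock proteins, and the chaperonins of both compartments. They were taken by gene symbol, with the endoplasmic reticulum chaperones Hspa5 and Hsp90b1 left out. The symbols matched 198 probe sets of 82 genes, among 45037 probe sets of the array that are not controls and 18193 genes with a probe set of their own. The J-domain symbols and Hspa13 bring in genes whose proteins work in the endoplasmic reticulum. A list of 7 of them is set apart below, and the rest may hold further genes of that compartment. Hsf1 and Hsp90ab1, which the selection also names, have no probe set annotated to that gene alone and are not analysed here.

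Liver RNA of male C57Bl/6J mice, 9 weeks old at the start, was measured on Affymetrix GeneChip arrays. Both groups had been fed a sunflower-oil diet poor in n-3 polyunsaturated fatty acids within a feeding period of 112 days. In the last 10 days the DEF/FOS mice stayed on that diet, with an n-6/n-3 ratio of 127.2, and drank water with fructooligosaccharides (FOS), a fermentable fibre, at 0.25 g per day. In the same 10 days the DEF/CT mice ate the control diet made with soybean oil, with a ratio of 6.9. The protocol gives 8 mice in each group. Equal amounts of RNA from some or all of them were pooled, and each pool was put on 1 array, so that no value below has a replicate, an SD between animals or a p-value. The oil and the fibre differed together between the pools and cannot be told apart.

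In most tissues these genes are expressed at all times, and part of them rises sharply when proteins unfold. HSF1, the heat shock transcription factor, is then released from chaperones, forms a trimer and binds heat shock elements, which are inverted repeats of the letters GAA. In the liver the same genes follow body temperature, feeding and many forms of toxic or metabolic stress.

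The values are MAS5 signal intensities, and the probe set with the highest mean log2 signal stands for its gene. Differences are log2 signal in the DEF/FOS pool minus log2 signal in the DEF/CT pool, centred on the median of the array, so a positive difference means a higher signal in DEF/FOS. A floor was set at the median signal of the array, 19.4, as a mean over both pools. Above it lay 68 of the 82 chaperone genes, among 11163 genes in all. The spread between probe sets of the same gene was the only measure of error here, and it leaves out any error shared by a whole array or pool. It was 0.33 on the log2 scale over 40 chaperone genes with several probe sets above the floor. Over 4885 such genes of the array it was 0.38, and it was 0.29 for genes whose brightest probe set had a signal above 324. The dimmer probe sets of these genes above the floor are counted in it. An SD between probe sets at a given signal has this meaning below.

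Chaperone genes were mostly higher in the DEF/FOS pool, by small amounts. Of the 68, 53 had a positive difference, or 77.9%, beside 49.9% of all genes above the floor. Their median difference was 0.18, with quartiles of 0.03 and 0.31, beside a median of 0.00 and quartiles of -0.24 and 0.22 over all genes. At 1.5-fold or more, 4 chaperone genes were higher, where the background was 6.75% of all genes, and 1 was lower, where it was 7.82%. The share higher at 1.5-fold was near the background, and what most of these genes had in common was the sign of a small difference. At 2-fold or more, 2 were higher, with a background of 1.74%, and 1 was lower, with a background of 2.19%. Set against the SD between probe sets at each gene's signal, 17 of the 68 were higher by more than that SD, with a background of 12.8%, and 2 were lower by more than it, with a background of 12.6%.

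**Figure D1:**
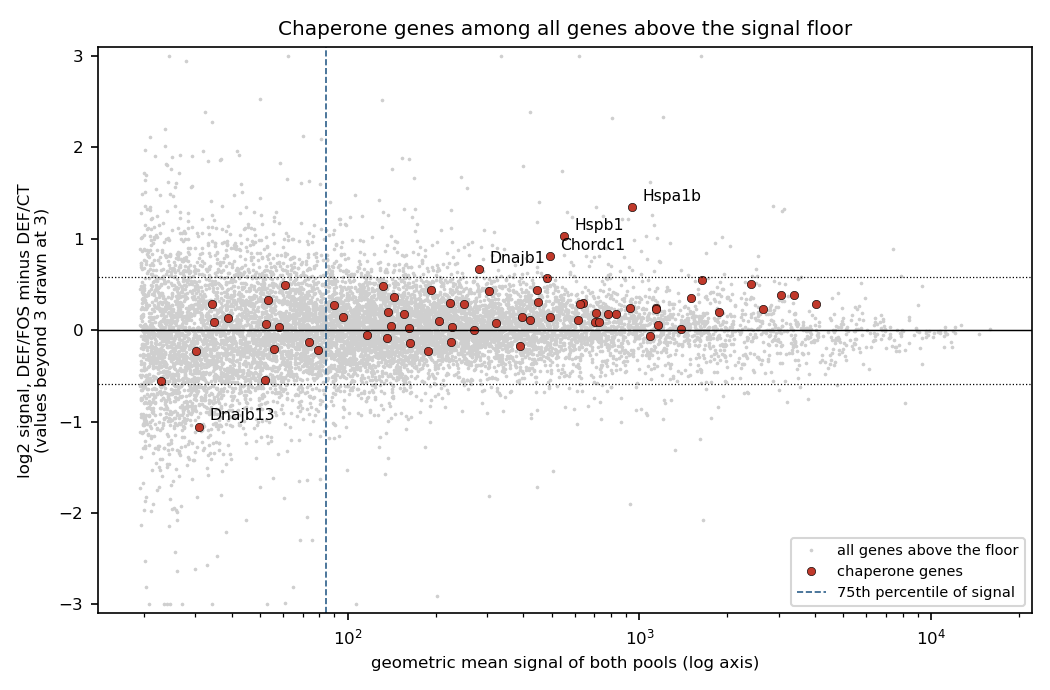
Difference between the pools (log2 signal, DEF/FOS minus DEF/CT) against the geometric mean signal of both pools on a log axis, for 68 chaperone genes (red) among 11163 genes above the floor (grey). Dotted lines mark 1.5-fold and the dashed line the 75th percentile of signal, a value of 84.3. Most red points right of the dashed line lie above 0.

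The positive sign was most frequent among bright genes. At or above the 75th percentile of signal, 84.3, 46 of 54 chaperone genes were higher in DEF/FOS, beside 53.6% of all genes there, and their median difference was 0.20 beside 0.02 for all genes. Here 4 reached 1.5-fold above the DEF/CT pool, with a background of 4.01%, and 2 reached 2-fold, with a background of 0.918%. None was lower by 1.5-fold or 2-fold, with backgrounds of 2.77% and 0.4%. Between the floor and that percentile 7 of 14 were higher, beside 44.4% of all genes of that range. Their median was -0.05, beside -0.06 for all genes there. The 79 other probe sets of these genes above the floor, which did not stand for a gene, had a median difference of 0.17, and 52 of them were positive. The other probe sets of all genes had a median of 0.02, and 51.7% of them were positive, beside 65.8% for the chaperone genes. In 17 of the 40 chaperone genes with several probe sets all were higher, and in 4 all were lower, beside 26.1% and 23.2% of all such genes.

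**Figure D2:**
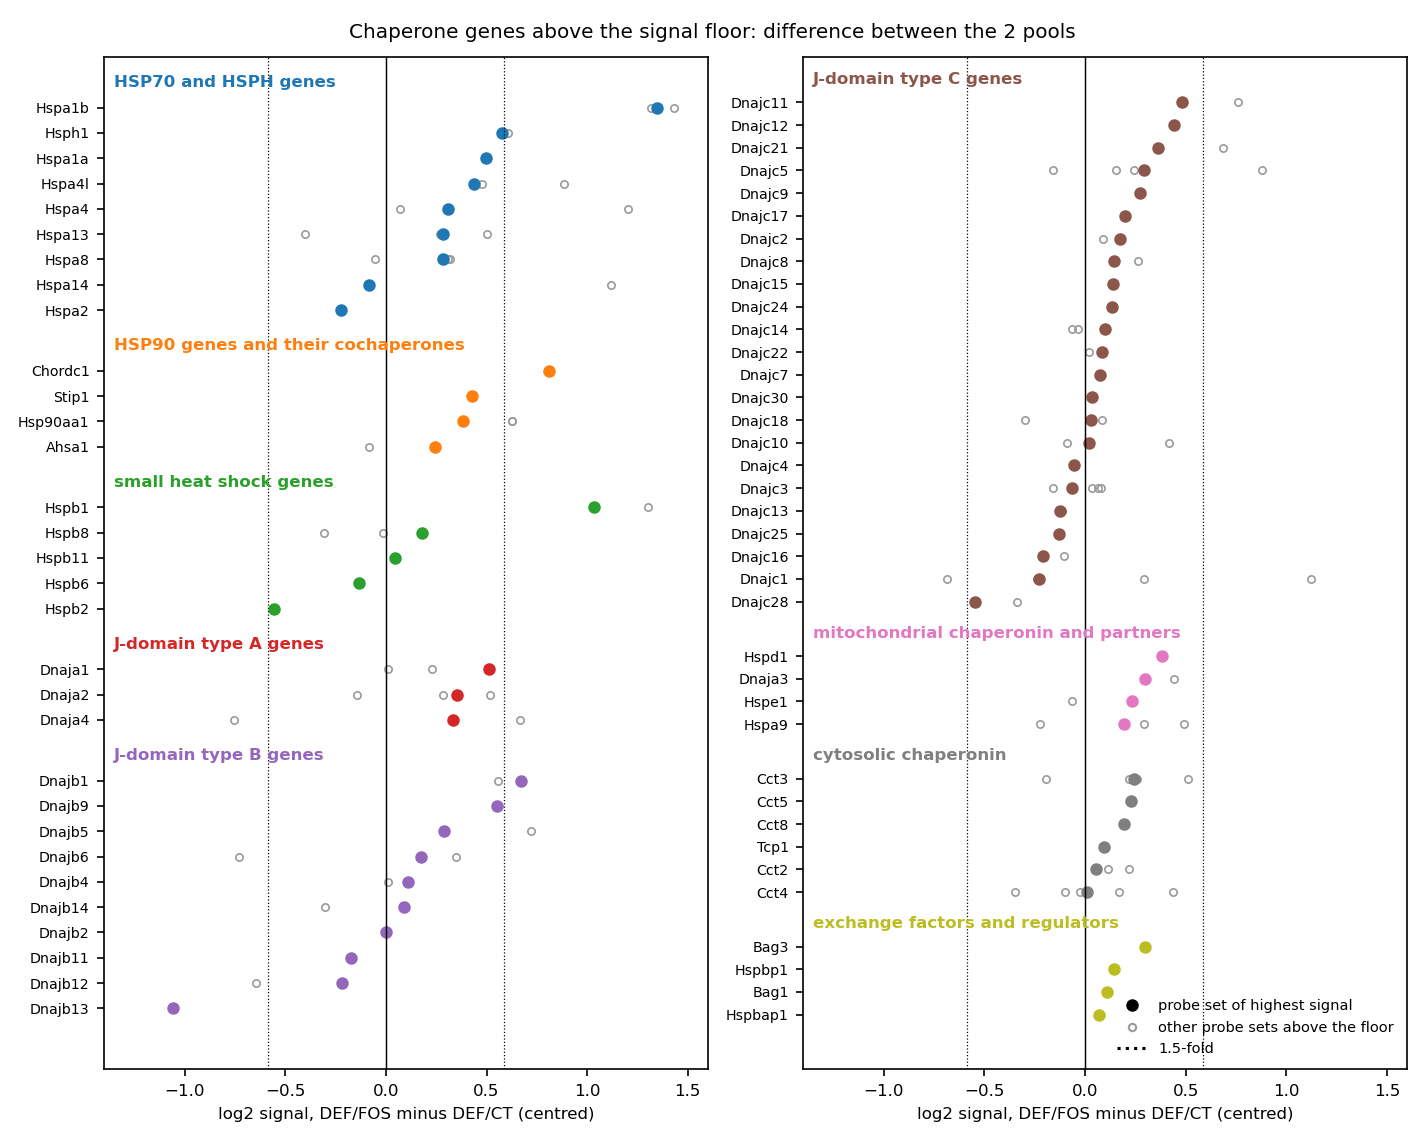
Differences (log2 signal, DEF/FOS minus DEF/CT) of the 68 chaperone genes by subfamily. Filled points are the probe set of highest signal, open points the gene's other probe sets above the floor, and dotted lines mark 1.5-fold. Hspa9 and Dnaja3 are drawn with the mitochondrial chaperonin. Hspa1b, Hspb1, Chordc1 and Dnajb1 lie beyond 1.5-fold on the right and Dnajb13 on the left.

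HSP70 proteins bind exposed hydrophobic stretches of their clients in cycles of ATP hydrolysis. The stress-inducible Hspa1b gave 1492 in DEF/FOS and 592 in DEF/CT, a 2.54-fold difference and the largest of all 68 genes. It ranked at position 76 of 11163 from the highest. Its 3 probe sets gave log2 differences from 1.32 to 1.43, so they differed among themselves far less than the pools did. Its neighbouring copy Hspa1a, by its 1 probe set, had 71.9 in DEF/FOS and 51.4 in DEF/CT, a log2 difference of 0.50, at a signal where the SD between probe sets was 0.46. The copies are near-identical, and a probe set named for one may also read the other.

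The stretches of 250 bases before the annotated starts of both copies are printed here because they show how alike the copies are and where the heat shock element lies. They come from RefSeq, build GRCm38.p6, are written 5′ to 3′ on the gene's strand, and are identical at 247 of 250 positions. Capitals mark a run of inverted units with GAA or TTC every 5 bases, allowing 1 mismatch in 3 units.
Hspa1b, chr17:34959239-34959488, minus strand: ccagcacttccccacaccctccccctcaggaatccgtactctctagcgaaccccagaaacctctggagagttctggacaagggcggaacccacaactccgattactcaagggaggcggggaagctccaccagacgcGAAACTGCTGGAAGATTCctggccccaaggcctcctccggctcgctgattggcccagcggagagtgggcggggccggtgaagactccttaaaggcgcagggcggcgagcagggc
Hspa1a, chr17:34972157-34972406, minus strand: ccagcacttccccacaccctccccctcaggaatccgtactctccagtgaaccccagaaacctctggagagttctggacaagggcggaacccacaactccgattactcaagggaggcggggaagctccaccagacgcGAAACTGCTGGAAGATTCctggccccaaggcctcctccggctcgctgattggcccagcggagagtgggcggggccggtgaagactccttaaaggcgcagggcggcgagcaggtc
The capitals run from position -114 to position -97 in each copy, counted back from the start. Both copies carry the same 18 letters there.

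The constitutive HSP70 of the cytosol, Hspa8, had 4425 in DEF/FOS and 3678 in DEF/CT. Its log2 difference of 0.28 was just under the SD of 0.29 between probe sets at that signal. Its 2 next brightest probe sets gave 0.32 and 0.31, and a dim one, with a signal of 35.3 in DEF/FOS and 37.0 in DEF/CT, gave -0.05. The HSP110 proteins, which exchange the nucleotide on HSP70, were higher as well. Hsph1 had 586 in DEF/FOS and 397 in DEF/CT, a log2 difference of 0.58 that lay just short of 1.5-fold at 1.49-fold, and its other probe set gave 0.61. Hspa4l differed by 0.44, and all 5 of its probe sets lay between 0.43 and 0.89. Hspa4 had 496 in DEF/FOS and 406 in DEF/CT, a log2 difference of 0.31, with probe sets from 0.07 to 1.20. Of the 10 HSP70 and HSPH genes above the floor, 8 were higher, with a median of 0.30. Below 0 were Hspa14, a ribosome-bound HSP70, at -0.08 and Hspa2, best known from the testis, at -0.22. The sign of Hspa14 turned with the probe set, since its dimmer one, with 34.4 in DEF/FOS and 16.0 in DEF/CT, gave 1.12. Hspa2 was dim, with 27.7 in DEF/FOS and 32.6 in DEF/CT.

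HSP90 matures kinases and steroid receptors with a set of cochaperones, and all 4 genes of this group with a probe set were higher in the DEF/FOS pool, with a median of 0.41. Chordc1, an HSP90 cochaperone with zinc-binding domains, had 648 in DEF/FOS and 374 in DEF/CT, a 1.75-fold difference from its only probe set. Stip1, which hands clients from HSP70 to HSP90, had 352 in DEF/FOS and 264 in DEF/CT, a log2 difference of 0.43. The inducible HSP90 gene Hsp90aa1 had 3468 in DEF/FOS and 2688 in DEF/CT, a log2 difference of 0.38 by its brightest probe set, while 2 further probe sets each gave 0.63. Ahsa1, which activates the ATPase of HSP90, had 1002 in DEF/FOS and 856 in DEF/CT. Its log2 difference of 0.24 was smaller than the SD of 0.29 between probe sets at that signal. A dim probe set of Ahsa1, with 26.3 in DEF/FOS and 28.2 in DEF/CT, gave -0.09.

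**Figure D3:**
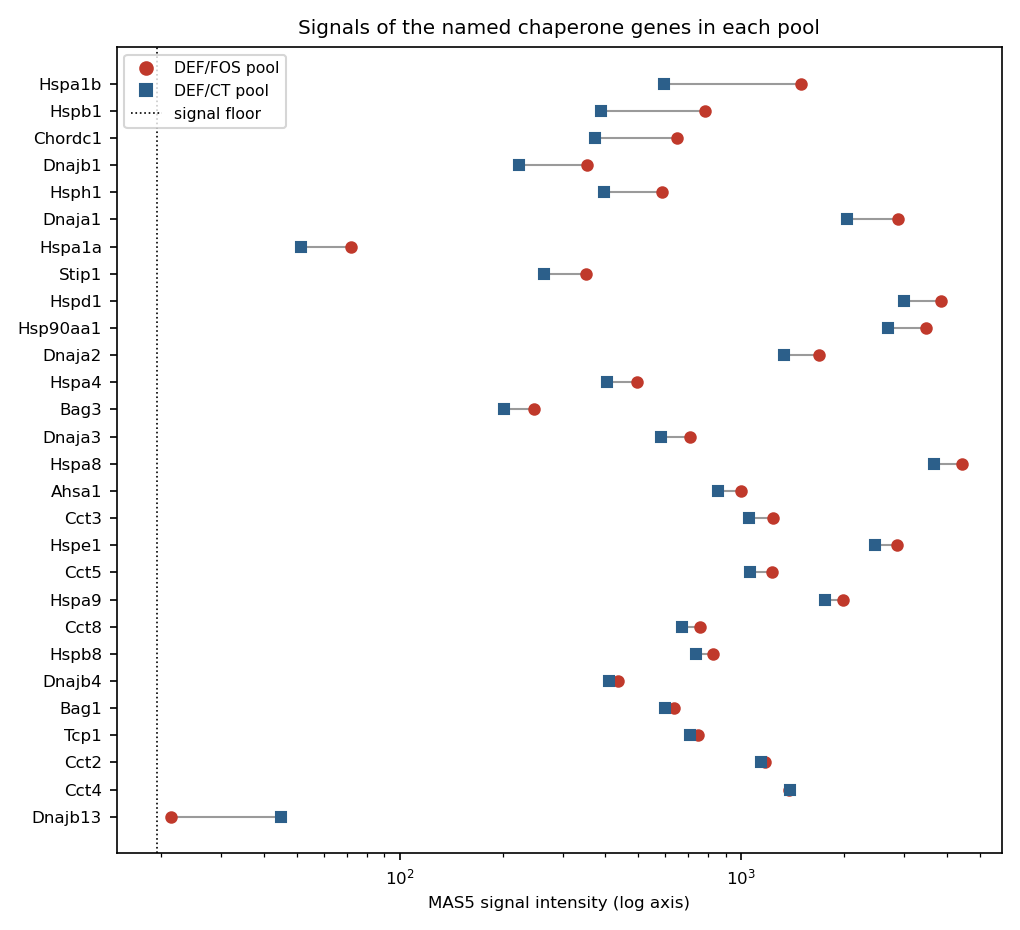
MAS5 signal intensity on a log axis of the 28 named chaperone genes above the floor in the DEF/FOS pool (red circles) and the DEF/CT pool (blue squares), ordered by difference. The dotted line is the signal floor of 19.4. In all but Cct4 and Dnajb13 the DEF/FOS signal lies to the right of the DEF/CT signal.

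Small heat shock proteins hold unfolding proteins without ATP, and their genes went both ways. Hspb1, the stress-inducible member of liver, had 785 in DEF/FOS and 388 in DEF/CT, a 2.05-fold difference, and its other probe set gave a log2 difference of 1.30 beside 1.03. Both probe sets carry a suffix for probes that may match several transcripts, of the same gene or of others. The brighter one ends in _a_at and the other in _x_at, and Hspb1 has no further one. Hspb8, which works with Bag3 in chaperone-assisted autophagy, had 827 in DEF/FOS and 736 in DEF/CT, a log2 difference of 0.18, with -0.01 and -0.31 in its other probe sets. Hspb11, a part of the transport machinery of cilia, differed by 0.05. The remaining members had lower signals in DEF/FOS. Hspb6 had 156 in DEF/FOS and 173 in DEF/CT. Its log2 difference of -0.14 was smaller than the SD of 0.38 between probe sets at that signal. Hspb2 had 18.8 in DEF/FOS, under the floor, and 27.9 in DEF/CT, and was at least 1.42-fold lower in DEF/FOS. Hspb7, with 6.13 in DEF/FOS and 20.9 in DEF/CT, and Hspb3 had means under the floor and are given no fold.

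Markers of skeletal muscle and of other cell types were read beside these values. All 10 muscle markers were lower in DEF/FOS, none of them at 0 in either pool, with a summed signal of 128 in DEF/FOS and 2428 in DEF/CT. Acta1, skeletal muscle actin, had 16.9 in DEF/FOS and 677 in DEF/CT. Most of the 10 muscle markers, Acta1 among them, had DEF/FOS signals under the floor of 19.4. Their part in the values of Hspb2, Hspb6 and Hspb7 was not tested. Hepatocyte markers had a summed signal of 53333 in DEF/FOS and 55293 in DEF/CT over the 7 of 8 listed genes above the floor, with differences from -0.22 to 0.25, so markers of the labelled tissue were bright in both pools. Of 6 neutrophil markers, 3 were above the floor and summed to 289 in DEF/FOS and 99.5 in DEF/CT, a gap that S100a8 and S100a9 carried. Ngp had 32.5 in DEF/FOS and 30.6 in DEF/CT, and the other 3, Camp, Ltf and Mpo, had means under the floor and lower signals in DEF/FOS. Mpo had 2.83 in DEF/FOS and 21.8 in DEF/CT. Kupffer cell and macrophage markers summed to 3373 in DEF/FOS and 2855 in DEF/CT, with 1 of 7 higher by 1.5-fold or more. Markers of B and plasma cells summed to 340 in DEF/FOS and 987 in DEF/CT over the 4 of 5 above the floor, with 3 of 4 lower by 1.5-fold or more. Proliferation markers summed to 252 in DEF/FOS and 88.4 in DEF/CT over the 4 of 5 above the floor, with 3 of 4 higher by 1.5-fold or more. In pooled tissue, fewer cells of a type and less RNA per cell cannot be told apart, and the part of these cells in the chaperone values was not tested.

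J-domain proteins bring clients to HSP70 and start its ATPase. They form the largest group, with 37 of 44 genes above the floor, of which 26 were higher in DEF/FOS, with a median of 0.11. Type A proteins, built like the bacterial DnaJ, were all higher, with differences between 0.30 and 0.51. Dnaja1, a cytosolic partner of Hspa8, had 2871 in DEF/FOS and 2036 in DEF/CT, a log2 difference of 0.51, although its other probe sets gave 0.23 and 0.01. Dnaja2 had 1686 in DEF/FOS and 1333 in DEF/CT, a log2 difference of 0.35, with probe sets from -0.14 to 0.52. Dnaja4 stood at 0.33 with probe sets from -0.76 to 0.67, a range wider than the difference itself.

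Among type B proteins the stress-inducible Dnajb1, the main J-domain partner of inducible HSP70, was the highest. It had 353 in DEF/FOS and 224 in DEF/CT, a 1.59-fold difference, and its other probe set gave a log2 difference of 0.56 beside 0.67. Dnajb4, a close relative of Dnajb1, differed by only 0.11, with 437 in DEF/FOS and 409 in DEF/CT. Dnajb6, a suppressor of protein aggregates, differed by 0.18, with probe sets from -0.73 to 0.35. The lowest was Dnajb13, a protein of the axoneme of sperm and cilia, with 21.4 in DEF/FOS and 44.9 in DEF/CT, a 2.08-fold difference from 1 probe set close to the floor. Of 10 type B genes 6 were higher, with a median of 0.10, which was 0.23 over all 13 with no floor.

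Type C proteins share only the J domain, and 16 of 23 were higher, with a median of 0.09 and a range from -0.55 to 0.48. The highest were the mitochondrial Dnajc11, with 156 in DEF/FOS and 112 in DEF/CT, and Dnajc12, a partner of phenylalanine hydroxylase, with 518 in DEF/FOS and 385 in DEF/CT. Their log2 differences were 0.48 and 0.44. The lowest was Dnajc28, with 42.7 in DEF/FOS and 63.1 in DEF/CT, and both of its probe sets were below 0. In others the probe sets did not share a sign, as in Dnajc1, whose 5 probe sets ran from -0.69 to 1.12.

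The 7 genes set apart for the endoplasmic reticulum had a median of -0.06, with 3 of them higher. Dnajb9, a cochaperone of the lumenal HSP70 that is induced by unfolded proteins there, had 1980 in DEF/FOS and 1366 in DEF/CT, a log2 difference of 0.55. Hspa13 differed by 0.29 and Dnajc10 by 0.02. The inhibitor of the kinase PERK, Dnajc3, differed by -0.06, and Dnajc25, Dnajb11 and Dnajc1 by -0.13, -0.17 and -0.23. Without these 7, 50 of 61 chaperone genes were higher, with a median of 0.18.

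In mitochondria, HSP60 and HSP10 form a folding chamber and mortalin pulls in imported proteins. All 4 genes of this group were higher in DEF/FOS, by 0.19 to 0.38 on the log2 scale. Hspd1, encoding HSP60, had 3859 in DEF/FOS and 2988 in DEF/CT, a log2 difference of 0.38. Hspe1, encoding HSP10, had 2866 in DEF/FOS and 2465 in DEF/CT, a log2 difference of 0.23, while its dimmer probe set gave -0.06. Hspa9, encoding mortalin, had 1993 in DEF/FOS and 1759 in DEF/CT, a log2 difference of 0.19, with probe sets from -0.23 to 0.49. Its J-domain partner Dnaja3 differed by 0.30, with 0.44 in its other probe set. The differences of Hspe1 and Hspa9 were smaller than the SD of 0.29 between probe sets at their signals.

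The cytosolic chaperonin CCT folds actin and tubulin in a ring of 8 kinds of subunit, and its genes differed little. All 6 selected subunits were above 0, with a median of 0.14, and none reached 1.5-fold. Cct3, Cct5 and Cct8 differed by 0.24, 0.23 and 0.19, Tcp1 by 0.09, Cct2 by 0.05 and Cct4 by 0.01. Cct4 had 1382 in DEF/FOS and 1389 in DEF/CT and lay above 0 only after centring, and its 6 probe sets above the floor ran from -0.35 to 0.44. All these differences were smaller than the SD of 0.29 between probe sets at such signals.

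Of the exchange factors and regulators, Bag3, an HSF1-regulated partner of HSP70, had 247 in DEF/FOS and 203 in DEF/CT, a log2 difference of 0.30. Bag1 differed by 0.11 and Hspbp1, another exchange factor, by 0.14. Hspbap1, named for its binding to HSPB1, differed by 0.07. All these differences, that of Bag3 included, were smaller than the SD between probe sets at the gene's signal. The transcription factor gene Hsf2 had 6.93 in DEF/FOS and 22.7 in DEF/CT, with a mean under the floor, and is given no fold. Of the 14 genes with means under the floor, 10 had both signals under it. Dnajb8 and Dnajc27 passed it only in DEF/FOS, and Hsf2 and Hspb7 only in DEF/CT.

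Promoter windows from 250 bases before to 50 bases after an annotated start were found in RefSeq for 68 of the 82 genes, 55 of them above the floor. Heat shock elements were searched as 2 units, GAANNTTC or TTCNNGAA, and as 3 units, GAANNTTCNNGAA or TTCNNGAANNTTC, where each pair covers both strands. The 3-unit matches contain 2-unit matches, and neighbouring matches may overlap. A 3-unit match with no mismatch was present in 8.05% of 87 chaperone promoters, beside 0.603% of 32851 promoters of the table. With 1 mismatch allowed, a rule added after the sequences had been seen, the shares were 24.1% and 7.22%. For 2 units they were 25.3% and 15.1%. Windows of the same gene may overlap, and those of Hsph1 share the same exact match, as do those of Dnajb6. Counted by gene, 5 of 68 chaperone genes had an exact 3-unit match, or 7.35%, beside 0.662% of 27025 genes.

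The 5 genes with an exact 3-unit match were Chordc1, Hsph1, Hspd1, Hspe1 and Dnajb6, and all 5 were higher in DEF/FOS, by 0.18 to 0.81 on the log2 scale, with a median of 0.38. Of the 50 genes above the floor without one, 36 were higher, with a median of 0.14, Hspa1b at 1.35 among them. With 1 mismatch allowed, 16 genes above the floor had a match, of which 15 were higher, with a median difference of 0.29. The 39 without a match had a median of 0.10, and 26 were higher. Hspa1b and Hspb1 had a 3-unit match only with that mismatch allowed. The same split was not made for genes outside the selection, and the difference between the groups was not tested. This is a description of letters in a window, and binding was not measured. Dnajb1, which was among the 4 highest genes, had no such match in its windows.

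The elements of 6 genes are shown because they include Hspb1, Chordc1 and Hsph1, all among the 5 highest genes, and because they differ in where they lie. Capitals have the same meaning as above, and the sequences are RefSeq's for GRCm38.p6, 5′ to 3′ on the gene's strand.
Hspb1, chr5:135887759-135887838, plus strand: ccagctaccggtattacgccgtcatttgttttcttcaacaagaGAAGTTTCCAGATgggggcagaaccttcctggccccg
Chordc1, chr9:18292207-18292291, plus strand: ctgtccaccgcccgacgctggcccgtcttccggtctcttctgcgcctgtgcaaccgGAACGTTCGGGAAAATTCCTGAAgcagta
Hsph1, chr5:149636337-149636396, minus strand: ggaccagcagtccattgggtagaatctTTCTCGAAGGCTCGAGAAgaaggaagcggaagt
Dnaja1, chr4:40722308-40722387, plus strand: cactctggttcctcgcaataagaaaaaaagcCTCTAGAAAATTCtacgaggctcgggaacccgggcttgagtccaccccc
Dnajb6, chr5:29735819-29735898, plus strand: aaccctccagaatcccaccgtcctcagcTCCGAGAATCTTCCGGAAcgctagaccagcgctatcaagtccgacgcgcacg
Hspe1, chr1:55088028-55088107, plus strand: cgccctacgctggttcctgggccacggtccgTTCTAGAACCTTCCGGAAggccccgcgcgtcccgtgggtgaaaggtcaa
In Chordc1 the capitals span the annotated start, from position -4 to position 19, with 3 overlapping exact matches. In Hspb1 the capitals begin at position -117, close to their place in Hspa1b. In Hsph1 the printed capitals hold matches with 1 mismatch, and the exact match lies after the start, at positions 37 to 49. Hspd1 and Hspe1 lie head to head, and the 18 capitals printed for Hspe1, at chr1:55088059-55088076, are the same bases that the search found in a window of Hspd1 on the opposite strand.

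**Figure D4:**
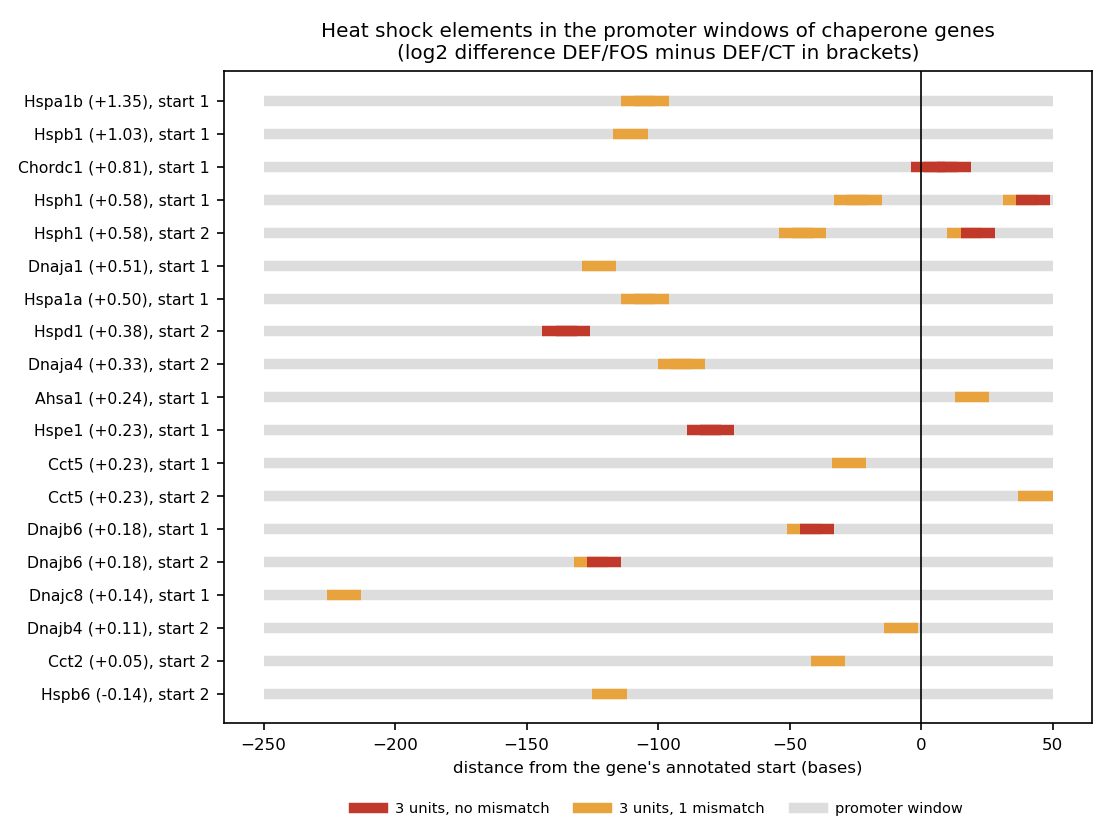
Positions of 3-unit heat shock element matches in the promoter windows of the 16 chaperone genes above the floor that had one, in bases from the annotated start, with no mismatch in red and 1 mismatch in orange. Each grey bar is 1 window, and a gene with several starts may have several bars. The number in brackets is the log2 difference, DEF/FOS minus DEF/CT, and the rows run from the highest to the lowest.

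Chaperone genes outside the selection were described beside it. Of 24 other chaperone and cochaperone genes above the floor, 17 were higher in DEF/FOS, with a median of 0.15. The extremes were Fkbp5, a cochaperone of steroid receptors, with 254 in DEF/FOS and 109 in DEF/CT, and Cryab, a small heat shock gene that muscle also expresses, with 40.9 in DEF/FOS and 129 in DEF/CT. They were 2.36-fold higher and 3.11-fold lower. Bag2, an inhibitor of client degradation by HSP70, was 1.62-fold higher, and Grpel1, the exchange factor of mortalin, 1.45-fold higher.

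The endoplasmic reticulum folding genes lay on the other side of 0. Of 12, 10 were lower in DEF/FOS, with a median of -0.23. Pdia4, a disulfide isomerase, had 62.9 in DEF/FOS and 131 in DEF/CT, and Sdf2l1 was 1.63-fold lower. Pdia3 differed by -0.44 and the lectin chaperone Calr by -0.35, while Hspa5 had 6044 in DEF/FOS and 5653 in DEF/CT, a difference of 0.11. Of 37 proteasome genes above the floor 27 were higher, with a median of 0.09 and none at 1.5-fold. They ran from -0.27 to 0.42, and the 4 furthest from 0 were Psma5 at 0.42, Psma6 at 0.37, Psmb5 at 0.36 and Psma7 at 0.34. The difference between these groups and the chaperone genes was not tested.

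**Figure D5:**
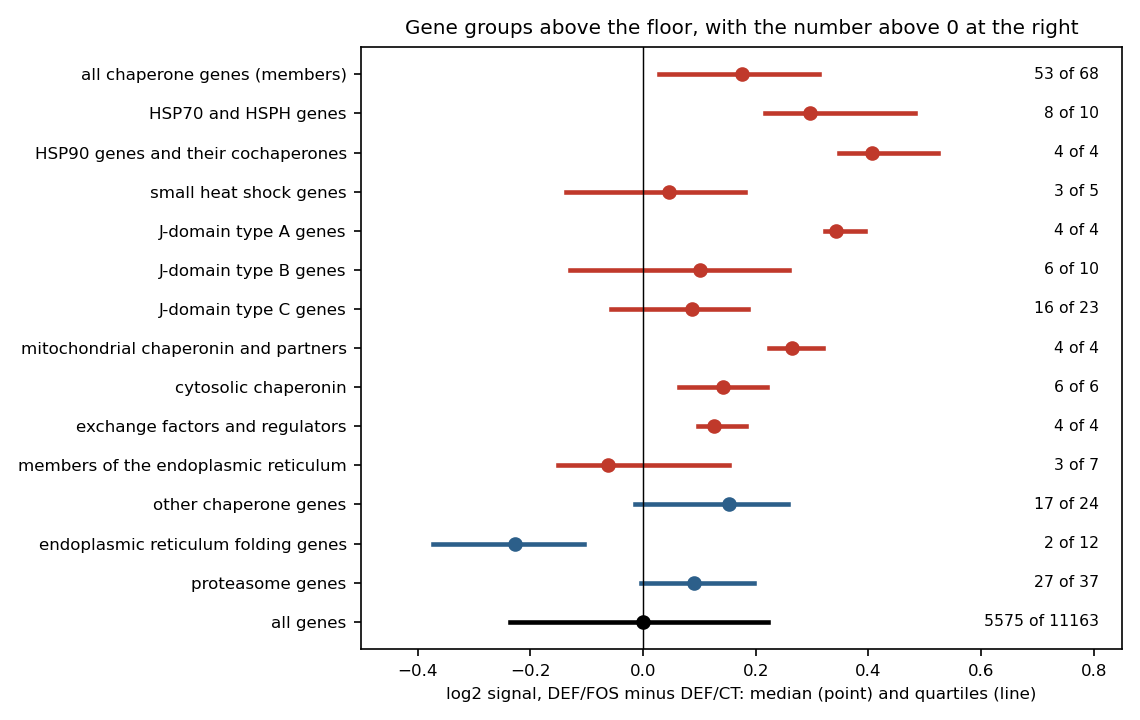
Median (point) and quartiles (line) of the log2 difference, DEF/FOS minus DEF/CT, for the chaperone genes and their subfamilies (red), other gene groups (blue) and all genes above the floor (black). The number of genes above 0 stands at the right. Hspa9 and Dnaja3 are counted both in their family and with the mitochondrial chaperonin.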

How the data were processed

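Liver RNA was pooled within each group and put on 1 Affymetrix array per pool, per the labels' protocols. The deposited intensity values are linear MAS5 signals for 45101 probe sets, and the submitters' processing notes name GCOS and MAS5 but no version. Trimmed by 2% at each end, the deposited intensities averaged 100.0 in both arrays. The table holds no detection calls or backgrounds, and the number of arrays limits the precision.

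Control probe sets (64) were left out. Of the rest, 34945 had 1 symbol in the platform annotation, 932 had several and are not named, and 9160 had none. Entrez identifiers matched to RefSeq (GRCm38.p6) updated 0 symbols. Log2 differences were computed with no offset and centred by subtracting -0.01, in Python 3.11.15 with numpy 2.4.6 and pandas 2.3.3. The procedure was tested on simulated data with known changes. Genes named are those at 1.5-fold or more, 30 symbols chosen for their role, the extremes of subfamilies and up to 4 of each comparison list. Other members and Hspa5 were named after their values were seen. The members and lists were chosen with earlier results of these data known. With no protein table used here, protein features were not analysed.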

Additional observations from a re-analysis of the deposited data

How the results depend on the processing

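The median difference of the chaperone genes was 0.18 and lay between 0.14 and 0.22 under 8 other settings of probe set, floor, offset and scaling and with 3 groups of genes left out in turn. The count at 1.5-fold or more higher was 4. It was 7 with the median over a gene's probe sets, which added Hsp90aa1, Hsph1 and Dnajc11, and 11 with no floor. It was 5 once probe sets with a suffix for shared probes (_s_at, _x_at or _a_at) were dropped, of which 3 were among the 4. Hspb1 was the one lost, since both of its probe sets carry such a suffix. The count at 1.5-fold or more lower was 1, Dnajb13. It was 7 with no floor, 0 with the floor at the 75th percentile of signal and 0 with 32 added to each signal. The genes added to the lower count with no floor all had means under the floor. So did those added to the higher count, except Dnajb9 and Hsph1. Both were bright and passed 1.5-fold because the centre moved when it was taken over all probe sets, which put Hsph1 at 0.63 in place of 0.58. Dnajb13 had a mean signal of 31.0, under the 75th percentile of 84.3, and with 32 added it differed by -0.52, short of 1.5-fold. Over all genes, 754 were higher and 873 lower at 1.5-fold, beside 2856 and 3546 with no floor, 244 and 212 with the floor at the 75th percentile and the centre taken again over the probe sets above it, and 278 and 258 with 32 added. With that recentring 44 of 54 bright chaperone genes were higher, in place of 46. With the probe sets of such suffixes dropped, Hspa8 differed by -0.05 and Hspe1 by -0.06, since their dim probe sets then stood for them. With no floor the small heat shock median was -0.29, over 8 genes in place of 5, and the type B J-domain median was 0.23, over 13 genes in place of 10. The other 214 values of named genes moved by less than the SD between probe sets at the gene's signal. For subfamily medians the limit was the SD between probe sets divided by the square root of the number of genes, and the other 70 moved by less than that. No paired analysis was possible because each group has 1 array. The precision is limited by the signal. For genes whose brightest probe set had a signal from 19.5 to 49.0, the SD between probe sets was 0.57. It was 0.29 for genes whose brightest probe set lay above 324.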
